A study of Mus musculus with 6 samples.

Results

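The 78 genes described here are named as proteins of the mitochondrial ribosome. They are all the rows of the expression table whose symbol is Mrpl or Mrps followed by a number and at most 1 letter, 78 of 32479 rows, of which 49 carry the large subunit symbol (Mrpl) and 29 the small subunit symbol (Mrps). The rule for membership uses the symbols alone, but the group was chosen with earlier results of these data known. RNA was sequenced from primary cells labelled cardiac fibroblasts, taken from C57BL/6J mice, in 6 libraries, 3 from mice given carbon tetrachloride (CCl4) and 3 from Control mice. CCl4 is a solvent that injures the liver and was used to model cirrhosis, and the stated question was how liver cirrhosis acts on the heart. The groups share the strain and the labelled cell type, and the cells were taken when the modelling period ended. The sources used here do not give the dose, route or duration of CCl4, any vehicle for the Control mice, the sex and age of the mice or the isolation method. Each group is described as 3 mice, and p-values measure the spread between these libraries.

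Mitochondria carry their own ribosome, which translates the few messenger RNAs encoded by mitochondrial DNA, all of them for subunits of the respiratory chain and of ATP synthase. Its RNAs come from the mitochondrial genome, whereas all of its proteins are encoded in the nucleus, made in the cytosol and imported. The small subunit reads the messenger RNA, and the large subunit joins amino acids and feeds the new protein into the inner membrane. Many of the proteins have a counterpart in bacterial ribosomes, and the others were added during mitochondrial evolution. Heart muscle is rich in mitochondria, and inherited defects of several mitoribosomal proteins in humans cause cardiomyopathy.

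Genes of this kind often have promoters with sites for NRF1, for ETS-family factors such as GABPA, and for YY1, which is why stretches just upstream of the transcription start are shown for genes that rose in CCl4 libraries and for genes that were not called. RefSeq windows of 300 bases (GRCm38.p6, 250 before to 50 after the start) matched 69 of the 78 genes. In each stretch capitals mark the motif match, which may be to either strand, and bases are written 5′ to 3′ on the strand of the gene. The first set holds the NRF1 core CGCNTGCG, upstream of Mrpl45 (chr11:97315633-97315715, plus strand) and Mrpl12 (chr11:120484511-120484610, plus strand), which rose, and of Mrpl9 (chr3:94443263-94443317, plus strand), which was not called.
Mrpl45: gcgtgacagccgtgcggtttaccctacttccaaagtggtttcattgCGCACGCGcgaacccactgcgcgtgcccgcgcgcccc
Mrpl12: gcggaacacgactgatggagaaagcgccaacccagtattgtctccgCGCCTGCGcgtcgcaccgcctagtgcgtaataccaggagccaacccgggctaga
Mrpl9: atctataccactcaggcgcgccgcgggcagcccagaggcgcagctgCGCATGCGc

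The second set holds the ETS core CCGGAAG, upstream of Mrpl34 (chr8:71464843-71464925, plus strand) and Mrps22 (chr9:98601680-98601736, minus strand), which rose, and of Mrpl22 (chr11:58171565-58171660, plus strand), which was not called and whose stretch also holds the NRF1 core in lower case.
Mrpl34: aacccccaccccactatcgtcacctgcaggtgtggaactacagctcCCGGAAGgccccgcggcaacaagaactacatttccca
Mrps22: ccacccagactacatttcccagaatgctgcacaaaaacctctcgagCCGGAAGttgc
Mrpl22: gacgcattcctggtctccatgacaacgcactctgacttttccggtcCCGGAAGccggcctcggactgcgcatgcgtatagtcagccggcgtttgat

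Searched on both strands, the NRF1 core was in 20 of the 69 windows (29.0%), against 18.6% of the windows of 8077 tested genes and 8.4% of all 27025 genes in the promoter table. The ETS core was in 25 windows (36.2%), against 19.2% of tested genes and 9.1% of all genes. The YY1 motif AAGATGGC was in 12 windows (17.4%), against 5.2% of tested genes and 2.9% of all genes. The ends of the ETS and YY1 strings can overlap, and they did so in 0 of the 69 windows. At least 1 of the 3 motifs was present for 13 of 21 called genes (61.9%) and for 30 of 48 genes that were not called (62.5%). A match is a string of letters and not a measured binding site.

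Expression is given in FPKM, a fragment count divided by the gene's length and by the library's mapped fragments. The FPKM values of a library summed to 519609 to 602763, and the depth behind them is unknown, so no counting interval is given. Although the libraries are labelled fibroblasts, all 20 cardiomyocyte markers in the list used had a mean of at least 1 FPKM, and their sum was 25470 to 27640 FPKM in CCl4 libraries and 19130 to 23320 FPKM in Control libraries. The 14 fibroblast markers were all detected too, and summed to 665.1 to 673.8 FPKM in CCl4 libraries and 496.8 to 816.8 FPKM in Control libraries. Rows of the mitochondrial genome made up 52.7 ± 0.595% of the FPKM sum in CCl4 libraries and 49.96 ± 1.17% in Control libraries (SD, n = 3 each). In such bulk samples, fewer cells of a type and less RNA per cell cannot be told apart.

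Transcripts of the mitochondrial ribosome were, as a group, shifted upward in CCl4 libraries on the deposited scale. Of the 78 genes, 25 rose (32.1%) and 0 fell, where 9.64% of all 10995 rows tested were called higher and 22.2% lower. A gene was called when the adjusted p of limma, on log2(FPKM + 1) and over all rows tested, was under 0.05. At an unadjusted p under 0.05 the numbers were 36 higher and 2 lower, where 1541 of all 10995 rows were higher and 3353 lower. All 78 genes passed the filter of a mean of 1 FPKM. Their median log2 fold change, CCl4 minus Control, was 0.20, beside a median of -0.09 over all rows tested, and the range was -0.25 to 0.71. Below, every value called a fold change is a log2 fold change, so a negative value is a fall. Fold changes lay above 0 for 59 genes, against 37.4% of all rows. The direction of the calls depends on how the libraries are scaled. Rescaled to a common sum per library (TPM), 10 genes were higher and 9 lower, where 5.61% of all rows were higher and 38.4% lower, and the median of all rows moved to -0.23. With trimmed mean of M-values (TMM) scaling 36 were higher and 0 lower, against 13.9% and 15.5% of all rows. With quantile scaling the numbers were 40 and 0, against 15.7% and 14.9%. With the mitochondrial genome rows left out and the rest rescaled they were 20 and 3, against 7.29% and 28.5%. With no filter on low rows they were 15 and 0, against 2.99% and 6.54%. The median of the 78 genes minus that of all rows was 0.28 as deposited, 0.29 with TPM and 0.30 with TMM.

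**Figure D1:**
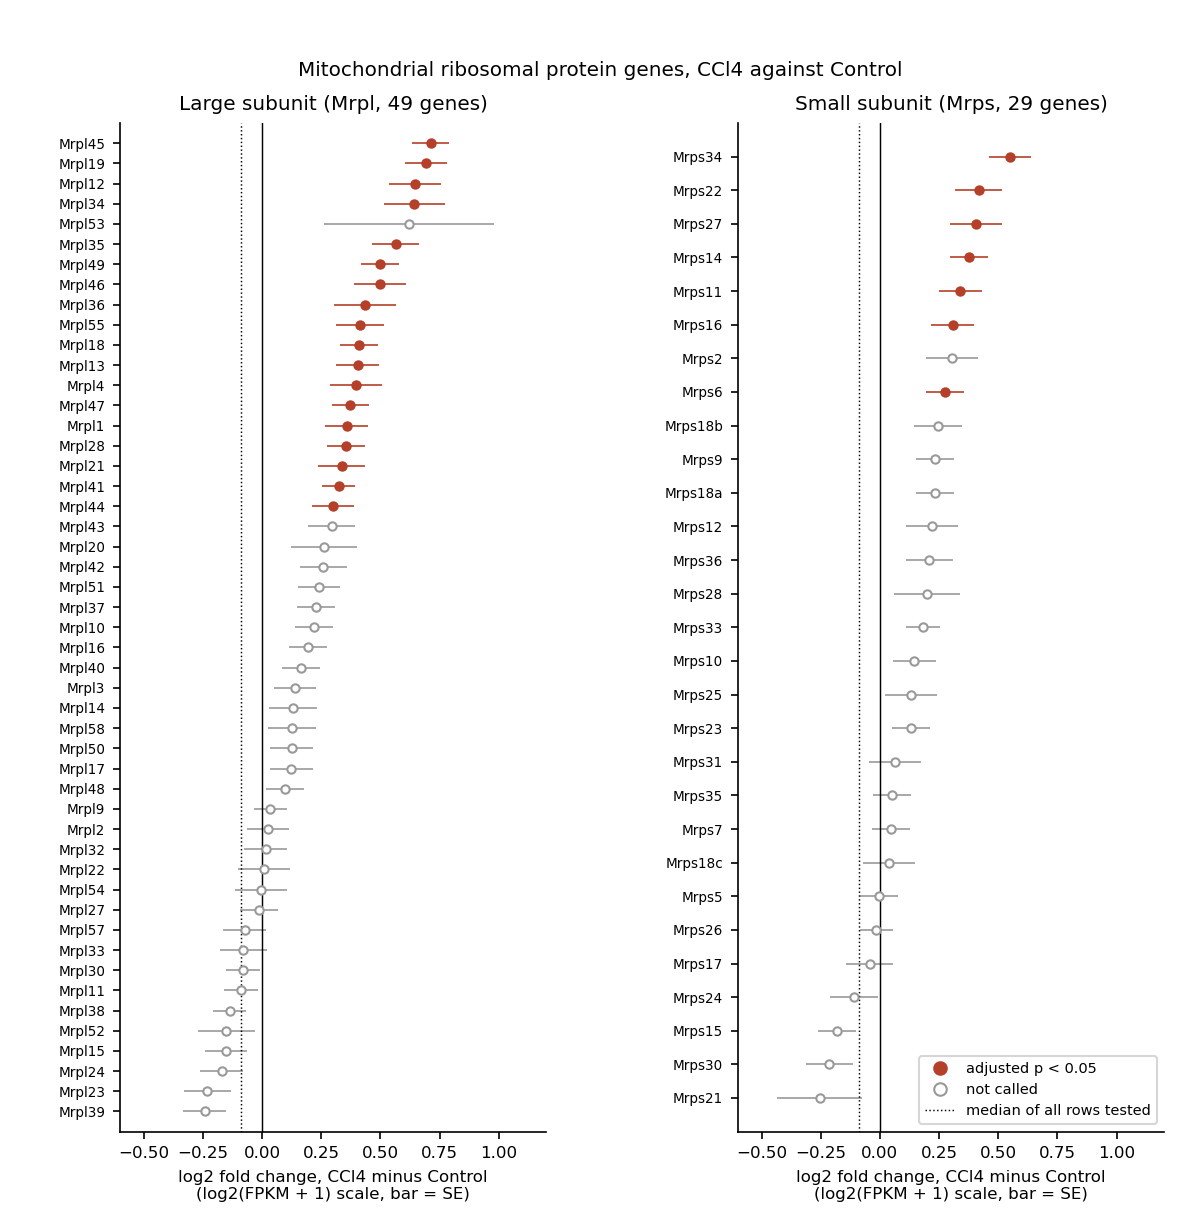
Log2 fold change of each mitochondrial ribosomal protein gene (x axis, CCl4 minus Control on the log2(FPKM + 1) scale, bars show SE) by subunit, with filled points for adjusted p under 0.05. All 25 filled points lie to the right of 0, and the points that were not called range from -0.25 to 0.62.

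The groups did not overlap in any of the 25 called genes. Over all 78 genes, every CCl4 library lay above every Control library for 36, against 14.7% of all rows. For 6 genes every CCl4 library lay below, against 34.0% of all rows, and for 36 genes the groups overlapped. Control replicate 1 was the highest Control library for 60 of the 78 genes. It lay above the lowest CCl4 library for 40 genes, against 22 for Control replicate 2 and 24 for Control replicate 3. No share over all rows is given for these counts. With Control replicate 1 left out, 33 genes were called higher. Without Control replicate 2 the number was 15, and without CCl4 replicate 1 it was 16.

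The large subunit held the rises of greatest size. Mrpl45 encodes a protein beside the exit tunnel that anchors the ribosome to the inner membrane. It lies at chr11:97315716-97329920 on the plus strand. Mrpl45 had 20.4, 18.9 and 21.1 FPKM in CCl4 replicates 1 to 3, against 12.6, 10.99 and 12.1 FPKM in Control replicates 1 to 3. The lowest CCl4 library was well above the highest Control library, and the log2 fold change was 0.71 ± 0.08 (SE), adjusted p = 0.000791. Mrpl12 encodes the protein of the stalk that recruits translation factors, and has also been reported to bind the mitochondrial RNA polymerase. Mrpl12 had 68.2, 60.7 and 65.4 FPKM in CCl4 libraries, against 48.3, 36.5 and 39.0 FPKM in Control libraries. It was the most abundant large subunit transcript, and its log2 fold change was 0.65 ± 0.11, adjusted p = 0.00444. Control replicate 1 was its highest Control library and still lay below all 3 CCl4 libraries.

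Other large subunit genes with a bacterial counterpart, whose names carry the number of the bacterial protein, rose as well. Mrpl19 had 3.77, 3.96 and 4.33 FPKM in CCl4 libraries, against 2.46, 2.02 and 1.86 FPKM in Control libraries. Its fold change was 0.69 ± 0.09, adjusted p = 0.00156. Mrpl19 shares 1962 exon bases with Gcfc2 on the opposite strand, so its reads are separable only if strand was used, which the sources used here do not say. Mrpl34 had 47.5, 43.6 and 42.7 FPKM in CCl4 libraries, against 35.0, 24.7 and 25.8 FPKM in Control libraries. The log2 fold change of Mrpl34 was 0.64 ± 0.13, adjusted p = 0.00801. Its Control replicate 1 stood above the other Control libraries and below the CCl4 libraries. Mrpl35 had 7.35, 6.67 and 7.81 FPKM in CCl4 libraries, against 5.24, 4.21 and 4.37 FPKM in Control libraries. The fold change of 0.56 ± 0.10 gave an adjusted p of 0.00403. Mrpl18 had 52.4, 48.3 and 46.7 FPKM in CCl4 libraries, against 38.6, 35.7 and 35.8 FPKM in Control libraries. Its groups were far apart for a fold change of 0.41 ± 0.08, adjusted p = 0.00635.

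Mrpl55 and Mrpl36 rose with less margin. Mrpl55, the counterpart of bacterial bL31, had 41.5, 36.8 and 40.1 FPKM in CCl4 libraries, against 33.6, 27.4 and 27.5 FPKM in Control libraries, with a fold change of 0.41 ± 0.10 and an adjusted p of 0.0162. Its call was lost with TPM scaling, at an adjusted p of 0.0845, and without CCl4 replicate 1 (0.0544), CCl4 replicate 3 (0.0587) or Control replicate 2 (0.0573). Mrpl36 had 17.5, 15.4 and 16.2 FPKM in CCl4 libraries, against 14.5, 9.68 and 11.8 FPKM in Control libraries, a fold change of 0.43 ± 0.13 and an adjusted p of 0.0363. This call was lost when any library other than Control replicate 1 was left out, at adjusted p of 0.0659 to 0.108, and with TPM scaling, at 0.124, without a filter on low rows, at 0.107, and with the mitochondrial genome rows left out, at 0.0542.

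Large subunit proteins without a bacterial counterpart were also among the rises. Mrpl49 had 15.9, 16.3 and 16.9 FPKM in CCl4 libraries, against 12.4, 10.8 and 10.7 FPKM in Control libraries. Its fold change was 0.50 ± 0.08, adjusted p = 0.00327. Mrpl46 had 13.8, 12.9 and 14.2 FPKM in CCl4 libraries, against 11.1, 9.18 and 7.97 FPKM in Control libraries. The CCl4 libraries of Mrpl46 sat within a narrower range than the Control libraries, and its fold change of 0.50 ± 0.11 had an adjusted p of 0.0128.

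In the small subunit, Mrps34 moved most. Mrps34, a protein specific to mitochondria, had 22.9, 21.3 and 21.0 FPKM in CCl4 libraries, against 14.7, 12.9 and 16.1 FPKM in Control libraries. Its fold change was 0.55 ± 0.09, adjusted p = 0.00399. Mrps34 overlaps Nme3 on the same strand over 763 exon bases and Mapk8ip3 on the opposite strand over 1309, so its FPKM may include reads of either. Mrps22, a protein specific to mitochondria whose human variants cause cardiomyopathy, had 3.68, 3.95 and 3.69 FPKM in CCl4 libraries, against 2.98, 2.15 and 2.64 FPKM in Control libraries. The groups were apart, with a fold change of 0.42 ± 0.10 and an adjusted p of 0.0144, but the call was just lost with TPM scaling, at 0.0511, and without a filter on low rows, at 0.0512.

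**Figure D2:**
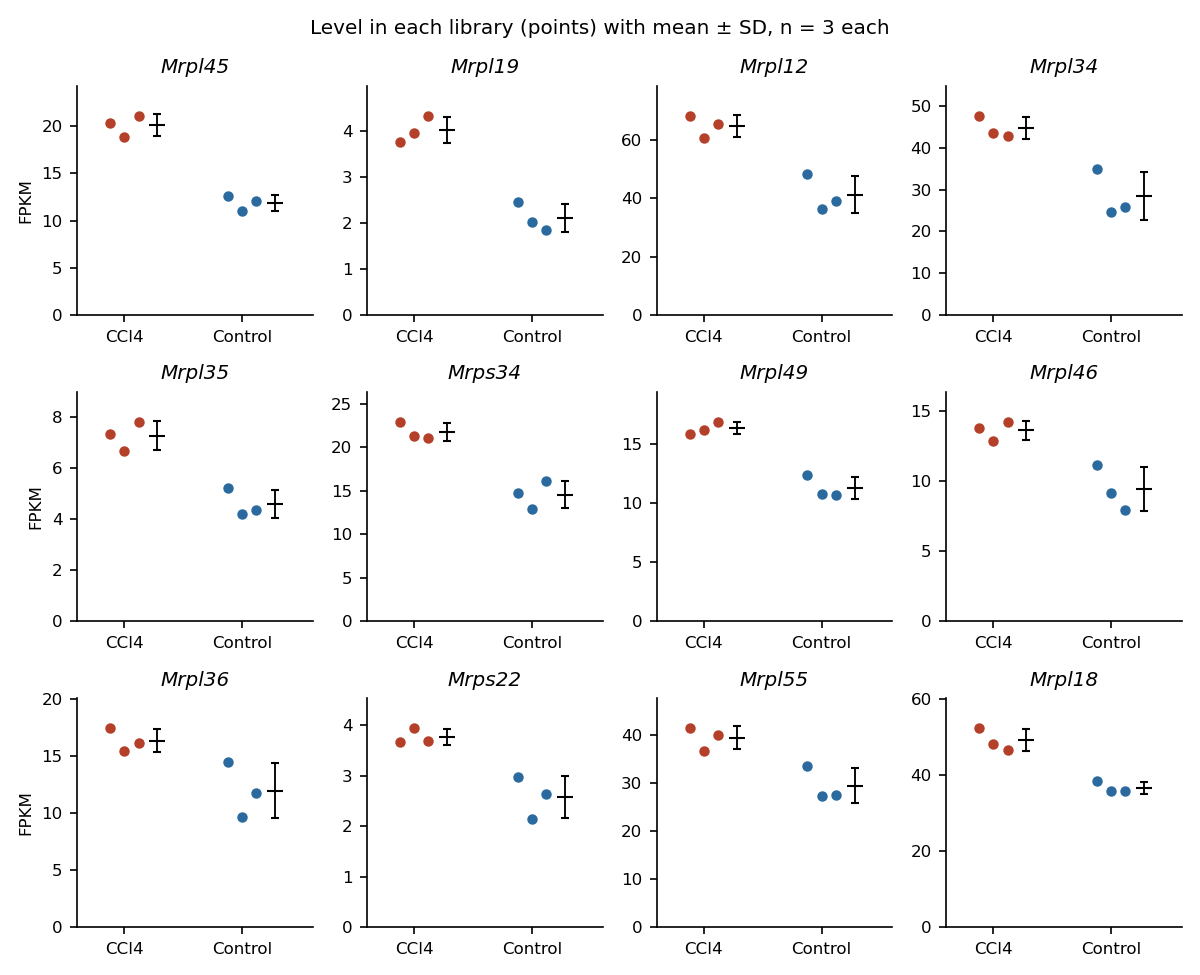
FPKM of the 12 called genes with the greatest log2 fold change, for CCl4 (left) and Control (right) libraries, with each library as a point and the mean and SD beside it (n = 3 each). In every panel the lowest CCl4 point lies above the highest Control point.

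The remaining 13 called genes had fold changes of 0.27 to 0.41. In the large subunit these were Mrpl13, Mrpl4, Mrpl47, Mrpl1, Mrpl28, Mrpl21, Mrpl41 and Mrpl44, the last a protein with a ribonuclease III-like domain. In the small subunit they were Mrps27, Mrps14, Mrps11, Mrps16 and Mrps6. Of all 25 called genes, 10 were called under every setting in which they were tested, namely Mrpl45, Mrpl19, Mrpl12, Mrpl34, Mrpl35, Mrpl49, Mrpl46, Mrpl18, Mrpl47 and Mrps34.

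The other 53 genes were not called, and their fold changes ran from -0.25 to 0.62, with 34 above 0 and 19 below. Mrps23, the transcript of the highest mean level at 60.3 FPKM, had 63.3, 62.0 and 63.9 FPKM in CCl4 libraries, against 63.0, 56.6 and 53.3 FPKM in Control libraries. Its groups overlapped through Control replicate 1 (fold change 0.13 ± 0.08, adjusted p = 0.252). Mrps10, the least abundant, had 2.07, 1.73 and 2.14 FPKM in CCl4 libraries, against 1.55, 1.66 and 1.87 FPKM in Control libraries, and its groups overlapped. Mrps21 varied more between libraries. It had 23.7, 36.2 and 40.04 FPKM in CCl4 libraries, against 43.9, 36.1 and 37.4 FPKM in Control libraries. Its fold change of -0.25 ± 0.18, the lowest of the 78, rested on CCl4 replicate 1 (adjusted p = 0.309). Of the other abundant or scarce members, Mrpl42 had a fold change of 0.26, Mrps28 of 0.20, Mrpl48 of 0.10, Mrpl32 of 0.02 and Mrps17 of -0.04, and none was called. Mrpl58, a peptidyl-tRNA hydrolase that rescues stalled ribosomes, had 7.87, 6.20 and 7.65 FPKM in CCl4 libraries, against 6.77, 6.18 and 6.60 FPKM in Control libraries, with overlapping groups. Mrpl3, whose human variants also cause cardiomyopathy, averaged 9.89 ± 0.372 FPKM in CCl4 libraries and 8.92 ± 0.991 FPKM in Control libraries (SD, n = 3 each), adjusted p = 0.260.

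Among genes whose CCl4 libraries all lay below the Control libraries, Mrpl39 had 14.4, 14.6 and 15.3 FPKM in CCl4 libraries, against 19.97, 17.2 and 15.9 FPKM in Control libraries (fold change -0.24 ± 0.09, adjusted p = 0.0799). Mrpl23 had 5.22, 4.40 and 3.86 FPKM in CCl4 libraries, against 5.41, 5.54 and 5.29 FPKM in Control libraries (fold change -0.23 ± 0.10, adjusted p = 0.105). Mrpl23 and Mrpl24, which was below too, encode proteins near the exit tunnel. The others were Mrpl38, Mrpl11 and Mrps15. None passed the test as deposited, but with TPM scaling all 6 were called lower, together with Mrpl15, Mrpl30 and Mrps30.

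The large subunit was compared with the small subunit by counts and medians, without a test of the difference. In the large subunit 18 of 49 genes rose (36.7%) with a median log2 fold change of 0.22. In the small subunit 7 of 29 rose (24.1%) with a median of 0.18. Over all rows 9.64% rose. The medians lay closer together when 0.1 or 0.01 was added before the log in place of 1. They were then 0.23 in the large and 0.21 in the small subunit. With TPM scaling 9 large and 1 small subunit genes were higher, and 7 large and 2 small subunit genes lower. Some symbols do not match the protein's place, since the products of Mrps30 and Mrps18a sit in the large subunit and that of Mrps36 is a subunit of 2-oxoglutarate dehydrogenase. Grouped by place, 18 of 51 large and 7 of 26 small subunit genes rose, with medians of 0.22 and 0.16. Mrps30 averaged 4.07 ± 0.494 FPKM in CCl4 libraries and 4.88 ± 0.566 FPKM in Control libraries, and was not called (SD, n = 3 each). Mrps18a averaged 9.03 ± 0.268 FPKM in CCl4 libraries and 7.56 ± 0.696 FPKM in Control libraries, and Mrps36 18.3 ± 1.47 FPKM in CCl4 libraries and 15.7 ± 1.51 FPKM in Control libraries, and neither was called. Of the related Mrps18b and Mrps18c, Mrps18b averaged 10.2 ± 0.350 FPKM in CCl4 libraries and 8.50 ± 1.27 FPKM in Control libraries, and Mrps18c 8.55 ± 1.48 FPKM in CCl4 libraries and 8.22 ± 0.311 FPKM in Control libraries, and neither was called.

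Summed over their genes, large subunit transcripts reached 878.0, 801.9 and 846.8 FPKM in CCl4 libraries, against 768.9, 654.0 and 660.2 FPKM in Control libraries. Small subunit transcripts summed to 387.6, 373.9 and 393.4 FPKM in CCl4 libraries, against 382.9, 344.2 and 331.1 FPKM in Control libraries. The large subunit sums did not overlap between groups and the small subunit sums did. The ratio of the large to the small sum was 2.27, 2.15 and 2.15 in CCl4 libraries, against 2.01, 1.90 and 1.99 in Control libraries. A single factor per library, as in TPM or TMM scaling, does not alter this ratio, but quantile scaling can. The ratio was computed by symbol on the deposited values, so Mrps30, Mrps18a and Mrps36 count in the small sum. Abundant genes weigh most in this ratio, with Mrpl12 alone giving 15.9% and Mrpl34 10.9% of the large subunit's difference. The ratio of the subunits' median levels was 1.54 to 1.61 in CCl4 libraries and 1.40 to 1.59 in Control libraries, which overlap.

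**Figure D3:**
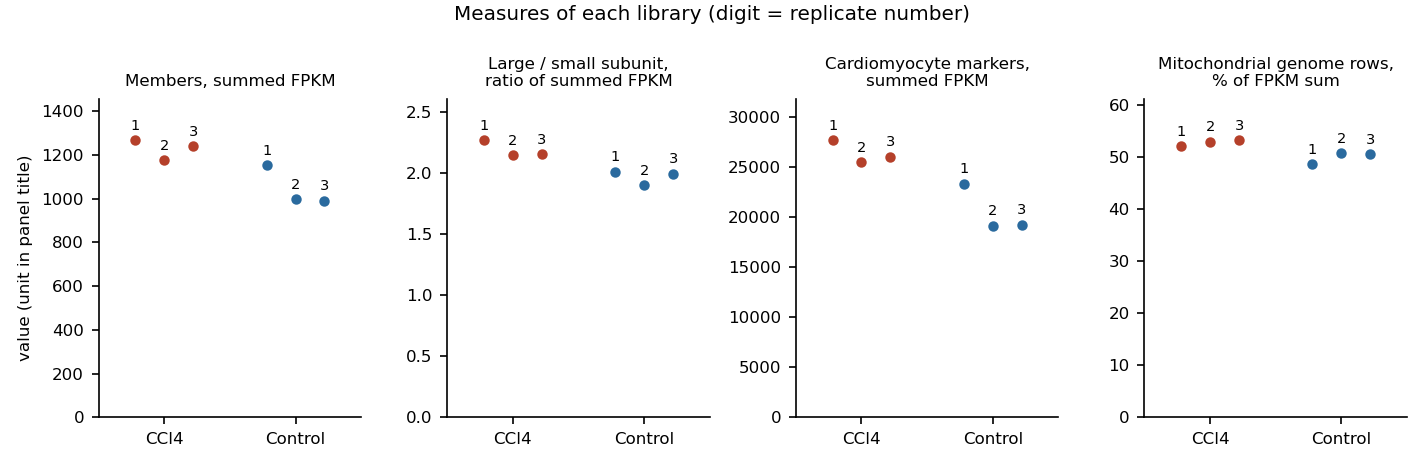
Measures of each library for CCl4 (left) and Control (right), with replicate numbers beside the points. The summed members are 1176 to 1266 FPKM in CCl4 libraries and 991.4 to 1152 FPKM in Control libraries, and the ratio of the large to the small subunit, the cardiomyocyte marker sum and the share of mitochondrial genome rows are each higher in all 3 CCl4 libraries.

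The cardiomyocyte marker sum and the summed members were both higher in all 3 CCl4 libraries. Control replicate 1 was the highest Control library in both. The FPKM sum of the whole library was also higher in all 3 CCl4 libraries, at 588700 to 602800, against 519600 to 542700 in Control libraries. The marker sum and the member sum are not scaled by it. Of the 20 cardiomyocyte markers, 4 were called higher and 2 lower, where 9.64% of all rows were called higher and 22.2% lower. None was at 0 in every library, and their median fold change was 0.15. The groups overlapped for 11 of the 20. All CCl4 libraries lay above for 6 and below for 3, against 14.7% and 34.0% of all rows. The 2 lower markers were Myoz2 (fold change -0.81 ± 0.07, adjusted p = 0.000326) and Fabp3 (-0.63 ± 0.10, adjusted p = 0.0032). Actc1, the cardiac actin, averaged 5840 ± 261 FPKM in CCl4 libraries and 1735 ± 477 FPKM in Control libraries (SD, n = 3 each) and so makes up much of the difference of the sums, 26370 FPKM in CCl4 libraries and 20570 FPKM in Control libraries on average. The 5 tested markers of red blood cells were all called higher, with sums of 2231, 4092 and 3325 FPKM in CCl4 libraries, against 2268, 537.0 and 737.9 FPKM in Control libraries. Of the 14 fibroblast markers, 7 were called higher and 0 lower as deposited and under each scaling, with a median fold change of 0.56 as deposited and none at an unadjusted p under 0.05 in the other direction on that scale. They include genes for fibrillar collagens. Col3a1 averaged 31.6 FPKM in CCl4 libraries and 4.88 FPKM in Control libraries (log2 fold change 2.54 ± 0.23, adjusted p = 0.000326). Col1a1 averaged 17.2 FPKM in CCl4 libraries and 4.02 FPKM in Control libraries (log2 fold change 1.88 ± 0.17, adjusted p = 0.000312). Of the 14 markers, 10 had fold changes above 0 and 4 below. The sum of the list is dominated by Gsn and Dcn, which were not called and had fold changes of -0.18 and -0.29. The others below 0 were Fbln1 (-0.23) and Pdgfra (-0.11), also not called. With TPM scaling 2 of the 14 were lower at an unadjusted p under 0.05. Of 12 endothelial markers 1 was called higher and 1 lower, and of 10 tested macrophage markers 1 was higher and 2 lower. Of 10 markers of smooth muscle cells and pericytes 3 were higher and 0 lower. The part of these marker measures in the rise of the mitoribosomal genes was not tested. As a percent of the FPKM sum, the 78 genes made up 0.206 ± 0.00550% in CCl4 libraries and 0.196 ± 0.0222% in Control libraries (SD, n = 3 each), and these ranges overlapped.

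By evolutionary origin, 17 of 46 genes with a bacterial counterpart rose (37.0%), with a median fold change of 0.20. Of 31 mitochondria-specific genes 8 rose (25.8%), with a median of 0.18. Over all rows 9.64% rose. In the large subunit the counts were 13 of 30 and 5 of 21. In the small subunit they were 4 of 16 and 3 of 10.

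Other components of the mitochondrial ribosome are listed under unrelated symbols. Of 5 such genes tested, Ptcd3 and Chchd1, both small subunit proteins, rose and 0 fell, where 9.64% of all rows rose and 22.2% fell. Ptcd3 had 16.6, 17.6 and 18.1 FPKM in CCl4 libraries, against 14.4, 12.2 and 11.98 FPKM in Control libraries (fold change 0.42 ± 0.09, adjusted p = 0.00987). Chchd1 had a fold change of 0.34 ± 0.10 (adjusted p = 0.0385). With TPM scaling 0 of the 5 were called higher, although 1 was higher at an unadjusted p under 0.05, and 1, Dap3, was called lower. With the mitochondrial genome rows left out 1 was called higher and 1, again Dap3, lower. The fold changes of Gadd45gip1, Dap3 and Aurkaip1 were 0.26, -0.16 and -0.10, and none of these was called.

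The RNAs that these proteins assemble on went the other way. The large subunit rRNA mt-Rnr2 had 2361, 2628 and 2127 FPKM in CCl4 libraries, against 3628, 4315 and 3963 FPKM in Control libraries, a fold change of -0.74 ± 0.11 and an adjusted p of 0.00193. The small subunit rRNA mt-Rnr1 fell too, with a fold change of -0.67 ± 0.10 and an adjusted p of 0.00293. Both fell under each scaling in which they were tested. These libraries were made from oligo(dT)-captured RNA, so the level of an rRNA depends on its capture through A-rich or adenylated ends. The messenger RNAs that the ribosome translates did not share that fall. Of these 13, 7 rose (53.8%) and 0 fell, with a median fold change of 0.30, where 9.64% of all rows rose and 22.2% fell. With quantile scaling, which bears most on the highest ranks, 1 was higher and 3 were lower.

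Among 25 factors that assemble the mitochondrial ribosome, 4 rose (16.0%) and 2 fell, with a median fold change of 0.08. Over all rows 9.64% rose and 22.2% fell. The rises included 3 methyltransferases of the large subunit rRNA. Mrm1 had 7.11, 6.38 and 8.37 FPKM in CCl4 libraries, against 4.39, 3.74 and 3.88 FPKM in Control libraries (fold change 0.72 ± 0.10, adjusted p = 0.00195). Mrm2 had a fold change of 0.59 ± 0.10 (adjusted p = 0.00327) and Mrm3 one of 0.32 ± 0.08 (adjusted p = 0.0162). Rcc1l, an assembly factor, fell to 6.70 ± 0.121 FPKM in CCl4 libraries, against 8.95 ± 0.175 FPKM in Control libraries (SD, n = 3 each, fold change -0.37 ± 0.07, adjusted p = 0.00529). With TPM scaling 2 of these 25 genes were higher and 6 lower, where 5.61% of all rows were higher and 38.4% lower.

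Of 12 translation factors of mitochondria 3 rose (25.0%) and 0 fell, with a median of 0.19, where 9.64% of all rows rose and 22.2% fell. Of the others, 1 had a negative fold change at an unadjusted p under 0.05. The elongation factor Tsfm had 7.63, 6.93 and 7.16 FPKM in CCl4 libraries, against 4.66, 3.91 and 4.42 FPKM in Control libraries (fold change 0.63 ± 0.08, adjusted p = 0.00133). The initiation factor Mtif2 and the activator of cytochrome oxidase translation Taco1 had fold changes of 0.45 ± 0.07 and 0.70 ± 0.14. The same number, 3, was higher with TPM scaling, where 1 was lower. Of 16 tested mitochondrial aminoacyl-tRNA synthetases, which load the transfer RNAs, Aars2 was called higher (fold change 0.31, adjusted p = 0.0348). With TPM scaling 0 were higher, also at an unadjusted p under 0.05, and 2 were lower, where 38.4% of all rows were lower.

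Among 21 tested genes for the upkeep and transcription of mitochondrial DNA and the handling of its RNA, 3 rose (14.3%) and 3 fell, where 9.64% of all rows rose and 22.2% fell. Hsd17b10, a subunit of mitochondrial RNase P, had 61.5, 59.1 and 58.8 FPKM in CCl4 libraries, against 88.5, 90.5 and 83.3 FPKM in Control libraries (fold change -0.54 ± 0.07, adjusted p = 0.00145). Fastkd1 and Polg, the DNA polymerase, had fold changes of -0.41 ± 0.08 and -0.36 ± 0.09. Tfam, which packages mitochondrial DNA and starts its transcription, was among the rises (fold change 0.32 ± 0.10, adjusted p = 0.0436), but with TPM scaling 0 of the 21 were higher at either threshold and 5 were lower, where 5.61% of all rows were higher and 38.4% lower.

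The genes named for the promoter motifs were measured as well. Of 12 tested regulators of nuclear mitochondrial genes, 0 rose at either the adjusted or the unadjusted threshold and 4 fell, where 22.2% of all rows did. With TPM scaling 6 of the 12 were lower, where 38.4% of all rows were. Ppargc1a, the coactivator that drives mitochondrial biogenesis, had 8.61, 9.73 and 10.5 FPKM in CCl4 libraries, against 16.3, 18.0 and 14.5 FPKM in Control libraries (fold change -0.70 ± 0.10, adjusted p = 0.00223). Gabpa had a fold change of -0.33 ± 0.09 (adjusted p = 0.0229), Yy1 of -0.29 ± 0.09 (adjusted p = 0.0421) and Myc of -0.90 ± 0.20 (adjusted p = 0.0128). Nrf1, below the filter, had 0.97, 0.86 and 0.74 FPKM in CCl4 libraries, against 1.09, 1.10 and 1.05 FPKM in Control libraries. With TMM and quantile scaling 3 and 2 of the 12 were called lower.

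The ribosome of the cytosol moved in the opposite direction. Of 79 genes of cytosolic ribosomal proteins, 0 rose at either the adjusted or the unadjusted threshold and 52 fell, where 22.2% of all rows did, with a median fold change of -0.34, against 25 rises and 0 falls among the 78 mitoribosomal genes. The cytosolic median was below 0 and the mitoribosomal median above 0 under each scaling, with 75 falls and a median of -0.50 for cytosolic genes with TPM, where the mitoribosomal median was 0.06, and with 23 falls and a median of -0.26 with TMM, where the mitoribosomal median was 0.28. Rps9 of the small cytosolic subunit had 65.6, 61.6 and 60.5 FPKM in CCl4 libraries, against 90.8, 95.2 and 95.9 FPKM in Control libraries (fold change -0.58 ± 0.07, adjusted p = 0.00117). Rpl30 and Rps28 had fold changes of -0.56 ± 0.08 and -0.57 ± 0.08. Of 75 nuclear genes for subunits of the respiratory chain and ATP synthase, 10 rose (13.3%) and 5 fell, with a median of 0.05. Over all rows 9.64% rose and 22.2% fell. Ndufa12 of complex I rose (fold change 0.50 ± 0.10, adjusted p = 0.00748), and Ndufa7 of complex I and Atp5g2 of ATP synthase fell (fold changes -0.36 ± 0.07 and -0.34 ± 0.07). With TPM scaling 2 were higher and 15 lower, where 5.61% of all rows were higher and 38.4% lower.

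**Figure D4:**
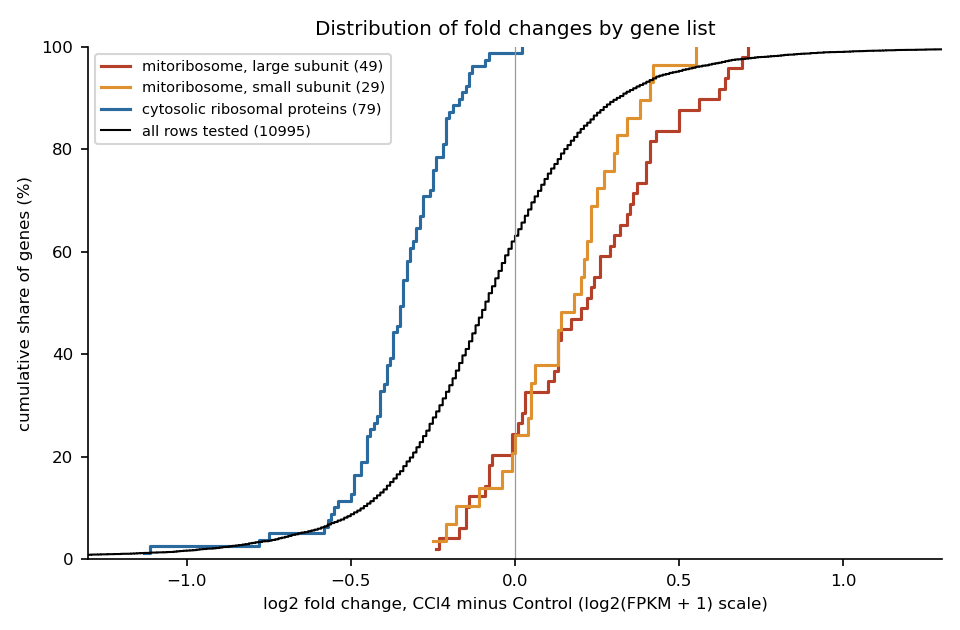
Cumulative share of genes (y axis, %) by log2 fold change (x axis, CCl4 minus Control on the log2(FPKM + 1) scale) for the large and small mitoribosomal subunits, cytosolic ribosomal proteins and all rows tested. The medians are 0.22, 0.18, -0.34 and -0.09, in that order.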

How the data were processed

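RNA was sequenced from 3 CCl4 and 3 Control libraries. Per the labels' protocols, messenger RNA was captured on oligo(dT) and the second strand was marked and degraded, so reads keep strand. Per the submitters' processing notes, the authors used StringTie 2.1.6 and the build GRCm38, and the deposited table holds FPKM values in 1 column for each of the 6 libraries. Aligner, annotation release, filters and strand setting: not given in the sources used here.

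From the deposited values log2(FPKM + 1) was computed, which understates changes of low genes. Rows with a mean of at least 1 FPKM over the 6 libraries, 10995 in all, were fitted in R 4.3.3 by limma 3.58.1, with eBayes variances that follow a trend, two-sided and without covariates. P-values were adjusted by Benjamini-Hochberg over all 10995 rows and called under 0.05. The fit was tested on simulated data. The members and lists were chosen with earlier results of these data known, so lists are described by counts and medians. With more than 24 members called, the rule named the 12 called members of greatest fold change with non-overlapping groups. It also named the 3 most and 3 least abundant of each subunit, Mrpl12, Mrps18a, Mrps18b, Mrps18c, Mrps30, Mrps36 and Mrpl58. Of each other list of mitochondrial or ribosomal genes it named up to 3 called genes of smallest p, and all 5 tested mitoribosomal proteins under other symbols. For each list of cell markers it set the markers of highest mean FPKM, and these were not all named here. Mrpl3, Mrpl39, Mrpl23, Mrpl53, Mrpl9, Mrpl22, the genes that lay below, Mrm3, Tfam, Actc1, Col1a1, Col3a1 and head-to-head partners were chosen after their values were seen. So were Myoz2 and Fabp3.

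Gene positions are from GENCODE M21 (GRCm38) and promoters from RefSeq (GRCm38.p6), matched by symbol, with the first window of each gene. The motifs' letters were chosen after the values were seen. Alternatives were other pseudocounts, filters, scalings, variance models, a replicate block and leaving out each library.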

Additional observations from a re-analysis of the deposited data

How the results depend on the processing

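The 25 rises remained 25 with pseudocounts of 0.1 and 0.01 and without a variance trend, and the count was 26 with robust variances. Without a filter, 15 were called higher (2 in the small subunit), where 2.99% of all rows were. With TPM scaling 10 were higher (9 large, 1 small) and 9 lower (7 large, 2 small), with medians of 0.06 for all members, 0.07 for the large and 0.05 for the small subunit. With TMM 12 small subunit genes were higher, with a median of 0.26. Quantile scaling gave 40 higher (14 small), with medians of 0.31, 0.34 for the large and 0.30 for the small subunit. Leaving out the mitochondrial genome rows and rescaling gave 20 higher and 3 lower (2 large, 1 small), with a small subunit median of 0.11. Dropping the filter raised the number of rows adjusted over. The other causes were not tested. With 1 library left out at a time, members higher ranged from 15 to 33 and lower from 0 to 1, large subunit genes higher from 12 to 24 and lower from 0 to 1, and small subunit genes higher from 3 to 9. The medians ranged from 0.16 to 0.23 for all members, 0.18 to 0.28 for the large and 0.12 to 0.21 for the small subunit, and the difference of large minus small from 0.02 to 0.09. In total 14 of the 25 were called whichever library was left out.

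The replicate number as a block gave 23 higher, 22 of them among the 25, and 0 lower. Deviations of same-numbered libraries correlated at -0.064, 0.046 and -0.038, so the numbers are not taken to pair mice.

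Single genes were followed across the settings only for the 25 called members and those named whatever their result. Of these, 6 that were not called changed sign under some setting, and the other uncalled members were not followed. With TPM the fold change was -0.11 for Mrpl32, -0.10 for Mrps18c, -0.02 for Mrpl48, -0.02 for Mrps23 and -0.01 for Mrpl58. Without the mitochondrial genome rows it was -0.04 for Mrpl32 and -0.03 for Mrps18c. For Mrps17 it was 0.03 with TMM, 0.04 with quantile scaling and -0.14 to 0.05 with 1 library left out, highest without Control replicate 1. With 1 library left out it was -0.04 to 0.06 for Mrpl32, below 0 without CCl4 replicate 1 or Control replicate 3 (-0.02), and -0.08 to 0.13 for Mrps18c, below 0 without CCl4 replicate 1. The depth is unknown, so the precision of low genes such as Mrps10 cannot be stated from counts.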

Other observations

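Mitoribosomal genes often stood head to head with a neighbour. A protein-coding gene on the opposite strand started within 1000 bases for 33 of the 78 (42.3%), against 16.6% of 9821 tested protein-coding genes. Of the 12 called members with such a neighbour, the neighbour was called higher for 2 and lower for 3. It was not called for 5 and not tested for 2. The 2 called higher are a single pair, Mrpl46 and Mrps11, each being the neighbour of the other. Of all rows tested, 9.64% were called higher and 22.2% lower. Among members not called, the neighbour was lower for 1, not called for 12 and not tested for 8. Mrpl46 and Mrps11, which encode proteins of different subunits, start 412 bases apart and both rose. They share 173 exon bases on opposite strands, where their reads are separable only if strand was used. Mrpl49 and Fau, a gene whose product includes the cytosolic ribosomal protein eS30, start 59 bases apart. Fau fell to 58.0, 53.6 and 53.5 FPKM in CCl4 libraries, against 67.1, 74.6 and 77.0 FPKM in Control libraries (fold change -0.40 ± 0.08, adjusted p = 0.00880), while Mrpl49 rose. Mrpl18 rose and Tcp1, a chaperonin subunit 644 bases away, had a fold change of -0.27 (adjusted p = 0.0206). Mrpl41 rose and Pnpla7, which starts 935 bases away, had a fold change of -0.86 ± 0.13 (adjusted p = 0.00244). Mrpl36 rose and Ndufs6, a complex I subunit 29 bases away, had a fold change of 0.05 (adjusted p = 0.697).

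Mrpl53 was the most variable member, with 35.3, 15.8 and 34.1 FPKM in CCl4 libraries, against 25.6, 10.4 and 18.4 FPKM in Control libraries. Its fold change of 0.62 ± 0.36 was not called (adjusted p = 0.221). Gm42688 covers 695 of its 790 exon bases on the same strand, and 81.9% of the 31-base words of Mrpl53 are also in that gene, so how its reads were divided is uncertain. In all, 28 members overlap an exon on the opposite strand and 8 one on the same strand.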
